A study of Homo sapiens with 2 samples.

Results

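The transcripts of the TGF-beta pathway core were followed in the human liver cancer line PLC, with and without added PRSS35, a secreted protease. The members were chosen by name: the ligands TGFB1 and TGFB2, the receptors TGFBR1, TGFBR2 and TGFBR3, the signal carriers SMAD2, SMAD3, SMAD4 and SMAD7, and TGFBI, a secreted protein named for its induction by TGF-beta. All 10 were found by gene name in both tables, among 26228 names, and 9 of the 10 were among the 11118 names with a mean FPKM of at least 1, called expressed here. TGFB2 was not.

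One condition carried the empty vector (EV), labelled as wild type, and the other over-expressed PRSS35. Both came from stable PLC lines made with a lentiviral vector and antibiotic selection, both were labelled as untreated, and whether either line is 1 clone was not given in the sources used here. Each condition has 1 library, so no difference has a replicate check, no test was made, and no p-value is given. The growth notes describe serum-containing medium and also a serum-free step, without saying which one preceded the RNA extraction.

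TGF-beta is secreted in a latent form, held by its own propeptide and by latent TGF-beta binding proteins, and is released by proteolysis or by integrins. The active ligand brings together the type II receptor TGFBR2 and the type I receptor TGFBR1, which phosphorylates SMAD2 and SMAD3, and these enter the nucleus with SMAD4. SMAD7 is induced by the pathway and inhibits it at the receptor. In the liver the pathway is known for growth arrest of hepatocytes, for fibrosis and for a later role in the spread of tumour cells.

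Values are FPKM as deposited, a level scaled by transcript length and library size, each with the lower and upper bound that Cufflinks put around it. These bounds cover error from counting and assigning fragments in 1 library, and the spread between cultures is not in them. Log2 changes are PRSS35 against EV after adding 1 FPKM to both values, which understates the change of low genes. PRSS35 itself had 0.643 FPKM (0.445 to 0.841) in EV and 1836 FPKM (1759 to 1912) in the PRSS35 library. The FPKM that 1 fragment adds, compared at 625 loci, had an EV to PRSS35 ratio of 1.001 in the median. This compares the libraries at those loci, and total depth was not estimated. The median log2 change of expressed genes was 0.06. The sum of FPKM over all loci, unnamed ones included, was 2469030 in EV and 1508530 in PRSS35, and dividing by it would shift this median to 0.68 and place all 10 members higher in the PRSS35 library. A direction given below is therefore that of the deposited values, and for most members the difference from the median gene is given beside it. A common scaling of a library cancels in that difference except through the pseudocount. Its sign under both scalings is therefore not a separate check.

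None of the members differed by 2-fold or more between the libraries. Among all expressed genes 5.21% did, 2.73% higher and 2.48% lower in PRSS35, and with division by the sum over all loci 11.3% were higher and 1.60% lower. The FPKM intervals of 5 of the 9 expressed members did not overlap between the libraries, 4 higher and 1 lower in PRSS35. For all expressed genes this share was 40.7%, with 25.2% higher and 15.5% lower. The median log2 change of the 9 expressed members was 0.10, and that of all 10 members was 0.06. In bulk RNA, fewer cells that express a gene and less of its RNA per cell cannot be told apart.

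**Figure D1:**
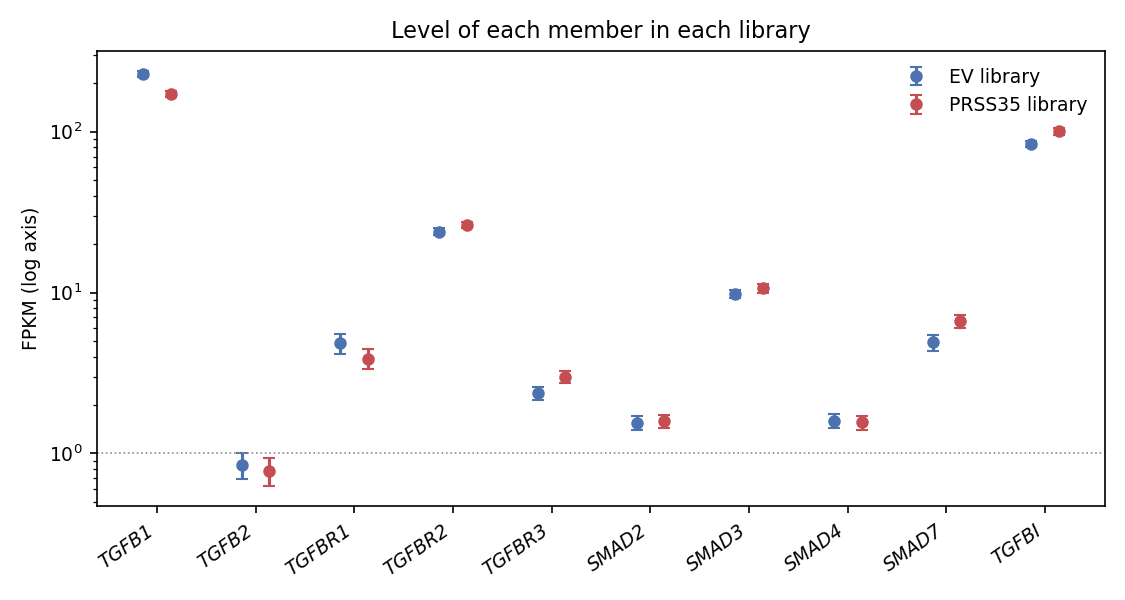
FPKM of each of the 10 members (log axis) in the EV library (blue) and the PRSS35 library (red), with bars for the Cufflinks bounds within a library and a dotted line at 1 FPKM. TGFB1 and TGFBI had the highest levels in both libraries, and only TGFB2 lay below the line in both.

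TGFB1, the main ligand, had the highest level of the members in both libraries. It had 227.8 FPKM (219.2 to 236.4) in EV and 170.9 FPKM (163.2 to 178.6) in PRSS35, which placed it above 93.0% and 91.2% of expressed genes. The intervals did not overlap. TGFB1 was lower in PRSS35 by the deposited values, 0.750-fold (interval 0.708 to 0.796) or -0.41 on the log2 scale, but higher, 0.29 on the log2 scale, when FPKM was divided by its sum over all loci. Relative to the median expressed gene its log2 change was -0.47 as deposited and -0.38 with that division, where the scaling cancels except through the pseudocount. Of all expressed genes, 6.77% had a lower log2 change than TGFB1.

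The TGFB1 locus is on chromosome 19 of hg19 (minus strand), from 41836436 to 41859910 in EV and to 41859838 in PRSS35, so the assembled loci differ by 72 bases at the 5′ end. TMEM91 is annotated on the opposite strand over this end, but no locus of that name is listed within 5000 bases of TGFB1. Its listed value of 0 in both libraries therefore does not describe this end. As no source states a strand-specific kit, reads of the 2 strands cannot be told apart. B9D2, the nearest named gene upstream, had 23.9 FPKM (21.7 to 26.2) in EV and 22.6 FPKM (20.4 to 24.8) in PRSS35, with overlapping intervals. The promoter of TGFB1 is shown because this ligand had the lowest log2 change of the members. The 250 bases upstream of its RefSeq start (from the GRCh38.p14 table, placed by exact match on GRCh37, the hg19 assembly, at chr19:41859828-41860077, minus strand) read as follows, 5′ to 3′, with GC boxes (GGGCGG or its reverse complement CCGCCC) in capitals.
TGFB1: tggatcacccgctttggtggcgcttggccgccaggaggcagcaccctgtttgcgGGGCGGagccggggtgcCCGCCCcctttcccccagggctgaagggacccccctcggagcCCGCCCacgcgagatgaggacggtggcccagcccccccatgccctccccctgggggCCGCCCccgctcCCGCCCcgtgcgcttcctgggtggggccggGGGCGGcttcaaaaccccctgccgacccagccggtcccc

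This window holds 6 GC boxes, and the 300 bases from 250 upstream to 50 downstream of the start hold 7, with a GC content of 77.3% against a median of 58.7% over all 35116 RefSeq promoters of the same length. It holds no CAGAC or GTCTG, the letters of the SMAD box. The members have 25 RefSeq promoters, of which 12 (48%) hold a GC box and 10 (40%) a SMAD box. Over all promoters these shares are 45% and 45.3%. The 25 are not independent, because several starts belong to the same gene, most often TGFBR1, and some of their windows overlap. The shares were not counted by gene, so no conclusion on the members is drawn from them. The AP-1 letters TGAGTCA or TGACTCA occur in 2 of the 25 (8%) against 4.95%, and the palindrome GTCTAGAC in 0 of the 25 against 0.202%.

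TGFB2, the second ligand among the members, had 0.852 FPKM (0.695 to 1.01) in EV and 0.781 FPKM (0.630 to 0.932) in PRSS35. The intervals overlap, and the interval of the ratio, 0.702 to 1.20, includes a ratio of 1. In FPKM, TGFB1 exceeded TGFB2 by 267-fold (221 to 323) in EV and 219-fold (180 to 267) in PRSS35. The TGFB2 value is that of a locus joined with TGFB2-OT1 in both libraries, and the antisense gene TGFB2-AS1 over its start is listed at 0 in both.

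Of the receptors, TGFBR2, the constitutively active type II kinase that binds the ligand, had the highest level. It had 23.9 FPKM (22.8 to 25.0) in EV and 26.4 FPKM (25.2 to 27.6) in PRSS35, a 1.10-fold difference (1.03 to 1.18) with intervals that do not overlap as deposited but do overlap after upper quartile scaling. TGFBR1, the type I kinase that phosphorylates SMAD2 and SMAD3, had 4.82 FPKM (4.14 to 5.50) in EV and 3.89 FPKM (3.34 to 4.44) in PRSS35. Its FPKM intervals overlap, although the interval of the ratio, 0.661 to 0.985, leaves out 1. Its log2 change of -0.25 would be 0.33 with division by the sum over all loci, or -0.31 and -0.35 relative to the median gene. TGFBR1 thus lay below the median gene, while TGFBR2 was at 0.07 relative to it as deposited and 0.14 with that division. The interval of the TGFBR2 log2 ratio, 0.05 to 0.24, includes the median gene at 0.06, so its side of the median was not resolved.

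The FPKM ratio of TGFBR2 to TGFBR1, which does not depend on the scaling of a library, was 4.96 (4.27 to 5.75) in EV and 6.78 (5.85 to 7.87) in PRSS35. These intervals do not overlap. TGFBR3, also called betaglycan, a co-receptor without kinase activity that presents ligand to TGFBR2, had 2.37 FPKM (2.15 to 2.60) in EV and 2.98 FPKM (2.72 to 3.24) in PRSS35. It was 1.26-fold (1.11 to 1.43) higher, with intervals that do not overlap, and 77.7% of expressed genes had a lower log2 change. After upper quartile scaling the TGFBR3 intervals stayed apart only narrowly, with an upper bound of 2.658 FPKM in EV and a lower bound of 2.662 FPKM in PRSS35.

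**Figure D2:**
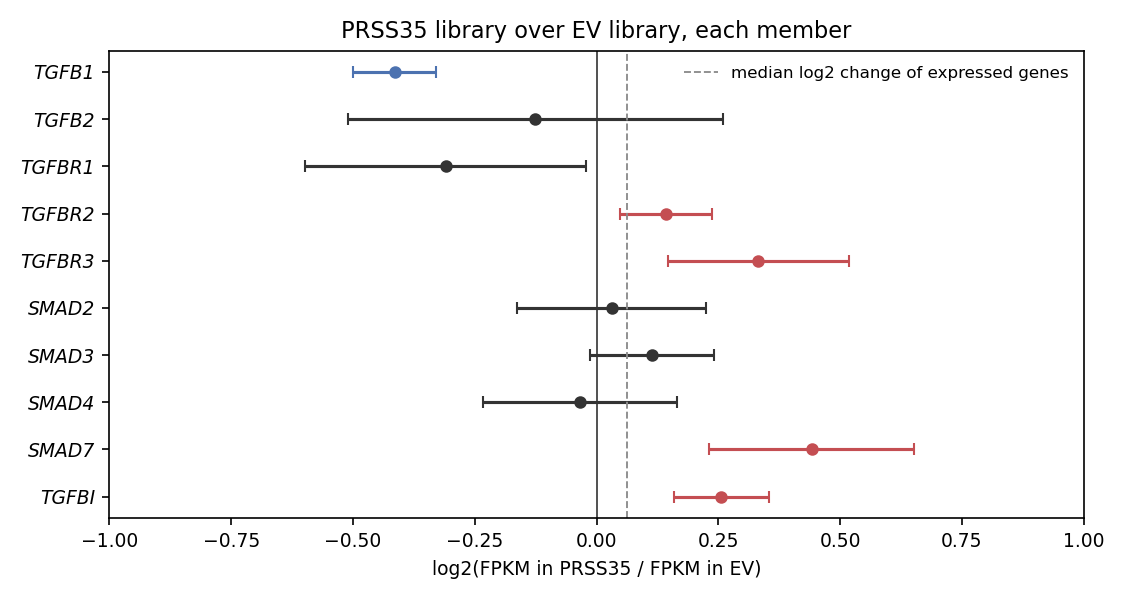
Log2 ratio of FPKM, PRSS35 over EV with no pseudocount, for each member, with the interval that the Cufflinks bounds of both libraries give, the solid line at no difference and the dashed line at the median of expressed genes, 0.06. TGFB1 (blue) lies lowest at -0.41, a side it leaves when FPKM is divided by the sum over all loci, and TGFBR2, TGFBR3, SMAD7 and TGFBI (red) lie higher with deposited FPKM intervals apart, while black marks overlapping FPKM intervals.

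By the deposited values, the SMADs that carry the signal were nearly level between the libraries. SMAD2, a receptor-phosphorylated SMAD, had 1.55 FPKM (1.40 to 1.70) in EV and 1.58 FPKM (1.43 to 1.73) in PRSS35. SMAD3, its close relative that binds DNA directly, had 9.82 FPKM (9.20 to 10.4) in EV and 10.6 FPKM (9.97 to 11.3) in PRSS35. SMAD4, the partner shared with the BMP branch, had 1.60 FPKM (1.44 to 1.75) in EV and 1.56 FPKM (1.41 to 1.71) in PRSS35. The intervals of all 3 genes overlap between the libraries, with log2 changes of 0.02, 0.10 and -0.02. For SMAD4 this sign turns, to 0.42, with division by the sum over all loci. For SMAD2 it turns, to -0.02, with upper quartile scaling. Relative to the median gene, the deposited values placed SMAD2 at -0.04, SMAD3 at 0.04 and SMAD4 at -0.08. With division by the sum over all loci these were -0.22, 0.08 and -0.26, a shift that enters only through the pseudocount and is larger for low genes. With no pseudocount, the log2 ratios of the deposited values were 0.03, 0.11 and -0.03.

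In FPKM, SMAD3 exceeded SMAD2 by 6.33-fold (5.65 to 7.10) in EV and 6.71-fold (6.0 to 7.51) in PRSS35, and these intervals overlap. SMAD2 and SMAD4 had like levels, with a ratio of 0.970 (0.846 to 1.11) in EV and 1.01 (0.885 to 1.16) in PRSS35. SMAD2, SMAD7 and SMAD4 lie within 3.25 Mb of chromosome 18. Of the 26 other gene names in this span 13 were expressed, with a median log2 change of -0.03, a lowest of -0.20 and a highest of 4.09. Of these 13, 2 were past 2-fold, beside 5.21% of all expressed genes. Some of the 13 names, such as RPL17 and RPL17-C18orf32, are not separate genes.

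SMAD7, the inhibitory SMAD that recruits ubiquitin ligases to the receptor, had the highest log2 change of the members. It had 4.89 FPKM (4.35 to 5.43) in EV and 6.65 FPKM (6.01 to 7.28) in PRSS35, with intervals that do not overlap. It was 1.36-fold higher (1.17 to 1.57), a log2 change of 0.38, and 88.8% of expressed genes had a lower one. Relative to the median gene its log2 change was 0.31 as deposited, and 0.31 with division by the sum over all loci, where the scaling largely cancels. The FPKM ratio of SMAD7 to SMAD3 was 0.499 (0.439 to 0.566) in EV and 0.626 (0.559 to 0.701) in PRSS35, and these intervals overlap slightly. The ratio of SMAD7 to SMAD2 was 3.16 (2.73 to 3.65) in EV and 4.20 (3.67 to 4.80) in PRSS35, intervals that do not overlap.

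The assembled SMAD7 locus was not the same in both libraries. It is on chromosome 18 of hg19 (minus strand) and starts at 46446223 in both, but it ends at 46477081 in EV and at 46478422 in PRSS35, 1341 bases farther upstream. In EV a separate unnamed locus of 692 bases, from 46477723 to 46478414, had 4.13 FPKM (2.99 to 5.27), and the whole of it lies inside the SMAD7 locus of the PRSS35 library. The RefSeq start farthest upstream, at 46477335, lies 254 bases upstream of the end of the EV locus and 1087 bases inside the PRSS35 locus. GENCODE (release v44, on GRCh37) annotates no gene over the unnamed locus. How much this joining contributes to the SMAD7 difference was not tested. At the other members the 5′ ends of the loci differed by at most 72 bases. The TGFBR2 locus was an assembled one in EV and an annotated one in PRSS35, and the reverse held for SMAD2. Such a mismatch also occurred among genes named below, INHBB, ACVR1B, SP1 and CYR61 among them. Its effect on their FPKM was not tested.

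The upstream window of this start (chr18:46477336-46477585, minus strand, from the same table and placed in the same way) is shown because the SMAD7 locus ran across it in PRSS35 and stopped short of it in EV, and because SMAD7 is a known direct SMAD target. It reads as follows, 5′ to 3′, with the SMAD box letters CAGAC (or GTCTG) in capitals.
SMAD7: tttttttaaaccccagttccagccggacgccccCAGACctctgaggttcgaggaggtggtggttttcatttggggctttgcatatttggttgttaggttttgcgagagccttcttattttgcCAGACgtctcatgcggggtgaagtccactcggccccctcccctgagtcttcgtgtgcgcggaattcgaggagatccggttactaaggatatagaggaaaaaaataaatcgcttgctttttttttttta

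It holds 2 SMAD boxes and no GC box, and the 300-base promoter has a GC content of 48.3%, below the 77.3% of TGFB1. The other RefSeq starts of SMAD7, at 46469177 and 46475703, lie inside the SMAD7 locus of both libraries. Their upstream windows hold 0 and 1 SMAD boxes. A match of these letters is a description of the sequence and not evidence of binding.

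TGFBI, an extracellular matrix protein that binds collagen and integrins, was the member with the second highest level. It had 83.9 FPKM (79.9 to 87.9) in EV and 100.2 FPKM (95.5 to 105.0) in PRSS35, and the intervals do not overlap. It was 1.19-fold higher (1.12 to 1.28), at 0.19 above the median gene on the log2 scale as deposited and 0.28 with division by the sum over all loci. The ligand and its namesake transcript thus lay on opposite sides of the median gene. In FPKM, TGFB1 was 2.72 times TGFBI (2.55 to 2.89) in EV and 1.71 times TGFBI (1.60 to 1.82) in PRSS35, intervals that do not overlap.

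Around the members, 94 other pathway genes were read out from lists of known function, of which 56 were expressed. In this set 3 genes were higher and 1 was lower by 2-fold or more, and all 4 either are listed at 0 in one library or share a locus with another gene in only one of them. Their median log2 change was 0.06, the same as for all expressed genes. The intervals of 26 of the 56 did not overlap, 20 higher and 6 lower in PRSS35, beside the 40.7% of all expressed genes.

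Of 16 other ligands of the family, 8 were expressed. The one with the highest level was GDF15, a stress-induced cytokine, with 1276 FPKM (1222 to 1330) in EV and 1350 FPKM (1293 to 1408) in PRSS35, and its intervals overlap. BMP4, a ligand of the BMP branch, had 43.9 and 43.3 FPKM, in EV and PRSS35, the order in which such pairs of values are given. The activin subunit INHBB had 15.1 FPKM (14.2 to 15.9) in EV and 17.9 FPKM (16.7 to 19.1) in PRSS35, and the related INHBE had 7.56 FPKM (6.89 to 8.23) in EV and 10.5 FPKM (9.70 to 11.3) in PRSS35, both with intervals apart. BMP8B is listed at 0 in EV and had 11.3 FPKM in PRSS35, so no fold is given. TGFB3, the remaining TGF-beta isoform, had 2.04 FPKM (1.64 to 2.43) in EV and 1.67 FPKM (1.41 to 1.92) in PRSS35, with overlapping intervals.

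Of 10 receptors of the other branches 3 were expressed, and of these ACVR1B, the activin type I receptor that also phosphorylates SMAD2 and SMAD3, had 4.26 FPKM (3.86 to 4.66) in EV and 6.08 FPKM (5.59 to 6.58) in PRSS35, with intervals apart. ACVR1 had 3.25 and 3.32 FPKM and BMPR1A 2.71 and 2.66 FPKM, in EV and PRSS35. ACVR2A, BMPR1B and ENG (endoglin, an endothelial co-receptor) are listed at 0 in both libraries, which in a table without counts can also be a failed estimate.

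SMAD6, the inhibitory SMAD of the BMP branch, had 27.8 FPKM (25.4 to 30.1) in EV and 18.9 FPKM (17.7 to 20.1) in PRSS35. Its log2 change was -0.53 as deposited, with intervals apart, beside 0.38 for SMAD7. SMAD1, which carries the BMP signal, had 1.04 FPKM (0.749 to 1.33) in EV and 2.03 FPKM (1.57 to 2.49) in PRSS35, also with intervals apart, while SMAD5 had 1.24 and 1.17 FPKM. The median log2 change of the BMP-induced list, 4 of 5 genes expressed, was 0.13. Its most abundant genes, the HLH proteins ID3 and ID1, had 1435 and 1156 FPKM in EV and 1481 and 1348 FPKM in PRSS35, and ID2 had 98.7 and 117.0 FPKM.

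Genes that hold TGF-beta latent or release it had a median log2 change of -0.12, with 5 of 10 expressed. FURIN, the protease that cleaves the TGF-beta propeptide, had 238.0 FPKM (227.8 to 248.2) in EV, in a locus joined with FES, and 233.7 FPKM (223.7 to 243.8) in PRSS35, where it stood alone. LTBP4 had 64.0 FPKM (61.2 to 66.8) in EV and 56.0 FPKM (53.5 to 58.4) in PRSS35, and LTBP3 had 36.5 FPKM (34.6 to 38.3) in EV and 32.0 FPKM (30.3 to 33.6) in PRSS35. LTBP1, of the same family of latent TGF-beta binding proteins, went the other way, with 6.26 FPKM (5.85 to 6.66) in EV and 8.03 FPKM (7.56 to 8.50) in PRSS35. The intervals of these 3 binding proteins were apart. The directions of LTBP4 and LTBP3, like that of TGFB1, are those of the deposited values.

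Of 6 extracellular antagonists 3 were expressed, with a median of 0.04. FSTL3, which binds activins, had 40.0 FPKM (38.0 to 42.0) in EV and 31.7 FPKM (28.0 to 35.4) in PRSS35, with intervals apart, whereas its relative FST had 31.1 and 32.0 FPKM and CHRD 3.07 and 3.19 FPKM. Of 15 intracellular regulators 13 were expressed, with a median of 0.06 and intervals apart for 2, both higher in PRSS35, beside 40.7% of all expressed genes. The 2 were BAMBI, a pseudoreceptor without a kinase domain, with 103.9 FPKM (100.9 to 107.0) in EV and 133.9 FPKM (130.5 to 137.4) in PRSS35, and TGIF2, a SMAD corepressor, with 234.3 and 306.9 FPKM for a locus that it shares with C20orf24 in both libraries. The ubiquitin ligase NEDD4L had 46.1 FPKM in both libraries, and the receptor-binding STRAP had 26.3 and 27.5 FPKM. The 4 expressed SMAD partners of 5 had a median of 0.03, and of these only SP1, which binds GC boxes, had intervals apart, with 2.21 FPKM (2.0 to 2.42) in EV and 2.99 FPKM (2.74 to 3.24) in PRSS35. RUNX3 had 14.5 and 14.2 FPKM, EP300 4.05 and 3.93 FPKM, and CREBBP 3.19 and 3.46 FPKM.

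Among 30 transcripts known to be induced by TGF-beta, 16 were expressed, and their median log2 change was 0.21 against 0.06 for all expressed genes. The intervals of 11 did not overlap, 9 higher and 2 lower, beside 40.7% of all expressed genes, 25.2% higher and 15.5% lower. With no filter on low values the median of this list was 0.051, against 0 for all gene names. Limited to the 13 whose locus carries the same names and is above 0 in both libraries, the median was 0.21, none differed by 2-fold or more, and the intervals of 7 were apart and higher and of 1 apart and lower. Over all expressed genes limited in this way 38.5% had intervals apart, 24.3% higher and 14.2% lower. Fibronectin (FN1) had 116.8 FPKM (114.3 to 119.4) in EV and 125.9 FPKM (122.8 to 128.9) in PRSS35, and the transcription factor JUNB had 61.0 FPKM (58.7 to 63.2) in EV and 70.6 FPKM (68.2 to 73.1) in PRSS35, both with intervals apart. The matricellular gene CYR61 had 85.0 FPKM (80.8 to 89.2) in EV and 69.9 FPKM (67.8 to 72) in PRSS35, and was lower by the deposited values.

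The 3 largest differences of this list were at loci listed at 0 or joined with another gene in one library only. CDKN2B, a cell cycle inhibitor, had 0.541 FPKM in EV and 294.0 FPKM in PRSS35, where its locus was joined with CDKN2A, and CDKN2A alone had 266.6 FPKM in EV. ANGPTL4 is listed at 0 in EV and had 37.3 FPKM in PRSS35. TAGLN had 3.09 FPKM in EV and is listed at 0 in PRSS35. ACTA2, SNAI2 and CDH2 are listed at 0 in both libraries, and COL1A2, COL4A1 and ZEB2 stayed below 1 FPKM in both. Also below 1 FPKM in both, THBS1 was lower in PRSS35, with 0.196 and 0.0364 FPKM, and LTBP2 was higher, with 0.672 and 0.982 FPKM. The intervals of THBS1 and of LTBP2 were apart. PMEPA1 had 0.842 and 0.595 FPKM, with overlapping intervals.

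**Figure D3:**
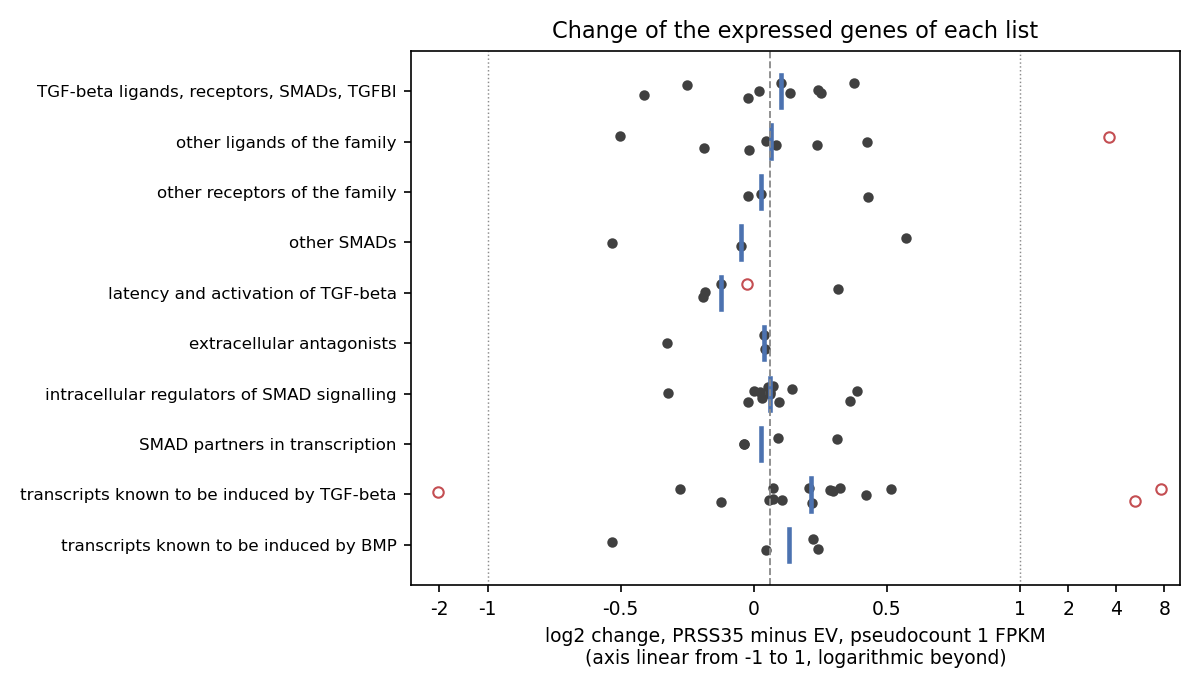
Log2 change, PRSS35 minus EV with a pseudocount of 1 FPKM, of the expressed genes of each list (points), with the median of each list (blue bar), the median of all expressed genes (dashed, 0.06) and 2-fold (dotted). Open red circles are genes listed at 0 in one library or with different locus names, and the 4 points past 2-fold are all of this kind. With this filter at a mean of 1 FPKM the TGF-beta-induced list has the highest median, 0.21. Without the filter it is 0.051, against 0 for all gene names. Directions below the dashed line are those of the deposited values.

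The cell line showed the transcripts of its label. All 9 hepatocyte and liver cancer markers were expressed, led by the keratins KRT18 and KRT8 with 2781 and 2457 FPKM in EV and 2315 and 2344 FPKM in PRSS35, and HNF4A had 41.2 and 47.7 FPKM. The liver secretory markers differed widely in level. APOA1 had 576.2 and 493.6 FPKM, TF 224.2 and 348.5 FPKM, and AFP 18.9 and 17.7 FPKM. ALB and TTR were low, ALB with 4.05 and 5.21 FPKM and TTR with 1.56 and 1.61 FPKM. Of the other cell types that produce or answer TGF-beta in liver, the 6 stellate cell and fibroblast markers summed to 1.75 FPKM in EV and 2.08 FPKM in PRSS35, with COL3A1, LRAT and LUM listed at 0. Of these 6 only PDGFRB was expressed, with 1.02 and 1.27 FPKM, and COL1A1 had 0.699 and 0.754 FPKM. The 5 endothelial markers were all below 1 FPKM in both libraries, and of 6 leukocyte markers only CD68 was expressed, in a locus joined with MPDU1, while PTPRC and CD3E are listed at 0.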

How the data were processed

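RNA from PLC cells was sequenced with 1 library for EV and 1 for PRSS35, grouped by the labels' genotype. Per the methods and the submitters' processing notes, the authors made the libraries with a NEBNext Ultra kit, aligned reads to hg19 with TopHat2 2.1.0 and estimated FPKM with Cufflinks (Cuffdiff 2.2.1 in the notes). The notes also name a fly build, with no role given. The annotation release and options are not given in the sources used here. The deposited values are FPKM per locus, divided by the authors' software by transcript length and mapped fragments, with lower and upper bounds. No read counts were used and the total depth was not estimated.

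Loci on the main chromosomes were matched by gene name, each name of a joined locus included, and FPKM was summed over loci of 1 name. A name was called expressed from a mean of 1 FPKM upward. Log2 changes used a pseudocount of 1 FPKM and a threshold of 2-fold. Intervals of ratios were propagated from the bounds on the log scale. The members and lists were chosen with earlier results of these data known. Named are all members, PRSS35 and, from each pathway list, genes past 2-fold and up to 4 with the highest mean FPKM. TGFB3, CDKN2A, B9D2, TMEM91, and genes named as listed at 0 or below 1 FPKM were added after their values were seen, and cell markers were given as examples. Some genes belong to more than 1 list. RefSeq promoters of all 10 members (25 starts, GRCh38.p14) each matched GRCh37 once, and motifs were searched on both strands.

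Alternatives were pseudocounts of 0.1 and 5 FPKM, division by the sum of FPKM over all or over named loci, scaling by the upper quartile, centring on the median change, loci with a single name only, the highest locus of each name, a 1.5-fold threshold, and no filter or a mean of at least 5 FPKM. A further one, chosen once the data had been seen, kept loci that carry the same names in EV and PRSS35 and are above 0 in each. The scripts were tested on simulated data and used Python 3.11.15, numpy 2.4.6, pandas 2.3.3 and matplotlib 3.10.9.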

Additional observations from a re-analysis of the deposited data

Results flagged for a closer look

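In the PRSS35 library an unnamed locus of 550 bases lies 596 bases beyond the 3′ end of the TGFB1 locus of the tables, from 41835290 to 41835839 on chromosome 19 of hg19, with 1.76 FPKM (0.842 to 2.67). It drew attention because no such locus is listed within 5000 bases of TGFB1 in the EV library, and no comparison of TGFB1 uses it. GENCODE (release v44, on GRCh37) extends TGFB1 over this place and annotates no exon there. Its level is small beside the 170.9 FPKM of TGFB1 in the same library. Its source was not tested.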

How the results depend on the processing

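No paired analysis was possible because EV and PRSS35 have 1 library each. The alternatives were pseudocounts, scalings, ways of joining loci, thresholds and filters. Only division of FPKM by its sum over all loci turned the direction of a member called apart: TGFB1 went from -0.41 to 0.29 on the log2 scale. It also moved the median log2 change of the members to 0.60, the members with intervals apart from 5 to 8, the other pathway genes past 2-fold from 4 to 10, their median to 0.69, and PRSS35 from 10.13 to 10.64. Pseudocounts of 0.1 and 5 FPKM gave PRSS35 a log2 change of 11.27 and 8.35. Limited to loci with the same names and above 0 in both libraries, an alternative added after the data had been seen, 0 other pathway genes lay past 2-fold, and 2.29% of all expressed genes did. Upper quartile scaling left 4 members with intervals apart, without TGFBR2. The median of the TGF-beta-induced list was 0.051 with no filter and 0.29 from a mean of 5 FPKM, where that of the other receptors, then ACVR1B alone, was 0.43. Over all genes the median was 0 with no filter and 0.06 from a mean of 5 FPKM. With division by the sum over all loci, the intervals of 89.3% of all expressed genes were apart. Under the other alternatives that gave a value for them, the members' log2 changes moved by less than their own interval, and with loci of a single name only, TGFB2 had no value. TGFB2, SMAD2 and SMAD4, near or under 2 FPKM, have bounds of 9.43% to 19.3% of their level to each side within a library. The intervals of their PRSS35 to EV ratios are wider, 0.702 to 1.20, 0.893 to 1.17 and 0.851 to 1.12. Differences inside these intervals were not resolved.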
